A study of Homo sapiens with 18 samples.

Results

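Oxidative phosphorylation in mitochondria is carried out by 5 protein complexes, and the genes described here are nuclear genes named for those complexes. They were chosen by symbol, so not every member need be a subunit. Cytochrome c1 (CYC1), a nuclear-encoded subunit of complex III, is not among them. Members were the protein-coding genes whose symbols begin with NDUFA, NDUFB, NDUFC, NDUFS or NDUFV (complex I), SDHA to SDHD (complex II), UQCR (complex III), COX4 to COX8 (complex IV) and ATP5 (complex V), without the NDUFAF assembly factors and without pseudogenes. The rule found 91 genes among 58050 in the deposited table. Of these, 83 had a normalised value of at least 10 in at least 3 of the 18 libraries, against 15228 genes in all that met this filter: 37 in complex I, 4 in complex II, 9 in complex III, 13 in complex IV and 20 in complex V. NDUFA4 and its paralogue NDUFA4L2 carry complex I names but were counted in complex IV, of which NDUFA4 is a subunit. A normalised value is a read count divided by a size factor for its library. Of the 83, 78 reached 10 in all 18 libraries, and those just inside the filter were NDUFV2 (3 libraries), NDUFA4L2 (7), ATP5MGL (11), SDHD and UQCRHL (16 each). Just outside it lay COX7A1, which reached 10 in 1 library.

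The measurements came from 6 groups of 3 libraries each of KNS-42, an established human glioma line that expresses the nuclease Cas9 and was kept under puromycin. DDX3Xoe cells carried a codon-optimised DDX3X transgene, DDX3Yoe cells a codon-optimised DDX3Y transgene, and parental cells carried neither. Each kind of cell was transduced with lentivirus carrying guide RNA 395, aimed at endogenous DDX3X, or a control guide to AAVS1, and total RNA was extracted on day 7. The groups were DDX3Xoe cells with guide 395, DDX3Xoe cells with AAVS1, DDX3Yoe cells with guide 395, DDX3Yoe cells with AAVS1, parental cells with guide 395 and parental cells with AAVS1. DDX3X and DDX3Y are DEAD-box RNA helicases encoded on chromosomes X and Y. The labels do not say which promoters drive the transgenes, whether the lines are clones or pools, or whether replicates were separate cultures, so p-values measure the spread between these libraries, which may be technical.

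Complexes I and II pass electrons from NADH and succinate to coenzyme Q, complex III passes them on to cytochrome c, and complex IV hands them to oxygen. Complexes I, III and IV pump protons out of the matrix, and complex V uses the returning protons to make ATP. Complex II is encoded wholly in the nucleus and is also an enzyme of the TCA cycle, whereas the other complexes combine nuclear subunits with subunits encoded by mitochondrial DNA. Many of their genes have promoters with binding motifs for the factors NRF1, GABP (an ETS family factor) and YY1.

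The libraries were sequenced from transcript 3′ ends and held 5667609 to 13201602 reads on genes, and longer transcripts gain no extra reads in such data. Endogenous DDX3X, whose 3′ reads check the guide labels only indirectly, had normalised values of 861, 844 and 953 in parental cells with guide 395, against 1780.5, 1923 and 1729 with AAVS1. In DDX3Yoe cells it had 878, 739 and 653 with guide 395, against 1379, 1557 and 1439 with AAVS1. In DDX3Xoe cells it had 1416, 716 and 578 in the libraries labelled guide 395, against 668, 1504 and 1162 in those labelled AAVS1. The replicate 1 pair labelled DDX3Xoe therefore ran against its guide labels. For DDX3Xoe cells the member medians, the separation counts between guides and the leading genes are also given without that pair. The medians of single complexes and the separation from parental cells are given only with it. The glioma and neural progenitor markers SOX2, NES, VIM and GFAP were at 10 or more in all 18 libraries, while OLIG2 and S100B were at 0 in all 18. The highest values of the leukocyte markers PTPRC, CD14 and CD3E lay between 4.26 and 9.02, and those of endothelial PECAM1 and VWF were 40.5 and 38.3.

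Promoter windows are shown for the 3 members that were called lower in parental cells by limma with or without a replicate block (COX4I1, COX7C and UQCR11) and for SDHD, whose level in parental cells was highest in replicate 1 under both guides. Each window covers 120 bases before to 30 bases after the annotated start, on the gene's strand, from RefSeq on GRCh38.p14: chr16:85799575-85799724 (plus strand) for COX4I1, chr5:86617821-86617970 (plus) for COX7C, chr19:1605433-1605582 (minus) for UQCR11 and chr11:112086753-112086902 (plus) for SDHD. Capitals mark the motifs GCGCA followed directly by its reverse complement (NRF1), CCGGAAG (ETS) and AAGATGGC (YY1) on either strand.
COX4I1: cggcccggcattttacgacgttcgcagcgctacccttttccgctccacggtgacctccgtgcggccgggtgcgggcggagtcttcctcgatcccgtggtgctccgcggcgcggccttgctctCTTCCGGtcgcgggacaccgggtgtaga
COX7C: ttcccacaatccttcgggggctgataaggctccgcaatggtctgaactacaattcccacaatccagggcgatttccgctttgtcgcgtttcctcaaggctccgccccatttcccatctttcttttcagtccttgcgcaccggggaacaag
UQCR11: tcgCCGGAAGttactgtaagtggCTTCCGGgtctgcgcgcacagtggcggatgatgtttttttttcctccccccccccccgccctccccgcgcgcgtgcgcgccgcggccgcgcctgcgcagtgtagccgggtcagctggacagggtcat
SDHD: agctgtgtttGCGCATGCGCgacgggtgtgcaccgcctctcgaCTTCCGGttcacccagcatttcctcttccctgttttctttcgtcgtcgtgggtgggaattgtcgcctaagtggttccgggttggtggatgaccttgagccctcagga
The COX4I1 window held an ETS motif just after its start, UQCR11 held a pair of ETS motifs facing each other, SDHD held an NRF1 motif and an ETS motif, and COX7C held no exact match to any of the 3. In the full windows of 300 bases, 64 of the 83 members matched the RefSeq table, and a gene was counted where any of its listed starts held the motif on either strand. The ETS motif occurred in 20 of the 64 (31.2%), against 21.9% of 10453 tested genes counted in the same way and 10.3% of all 35116 promoters. The last share counts each promoter singly, so here and below it is not on the same scale as the shares of genes. The YY1 motif occurred in 12 of the 64 (18.8%), against 6.42% and 2.89%. The NRF1 motif occurred in 4 of the 64 (6.25%: NDUFA8, NDUFB4, SDHD and ATP5F1C), against 2.72% and 1.24%. The CCAAT box (CCAAT) occurred in 34.4% of the 64, against 43.5% of the tested genes. The GC box (GGGCGG) occurred in 64.1% against 76.6%, and the TATA box (TATAAA) in 9.38% against 8.48%. Such matches describe letters and not binding.

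**Figure D1:**
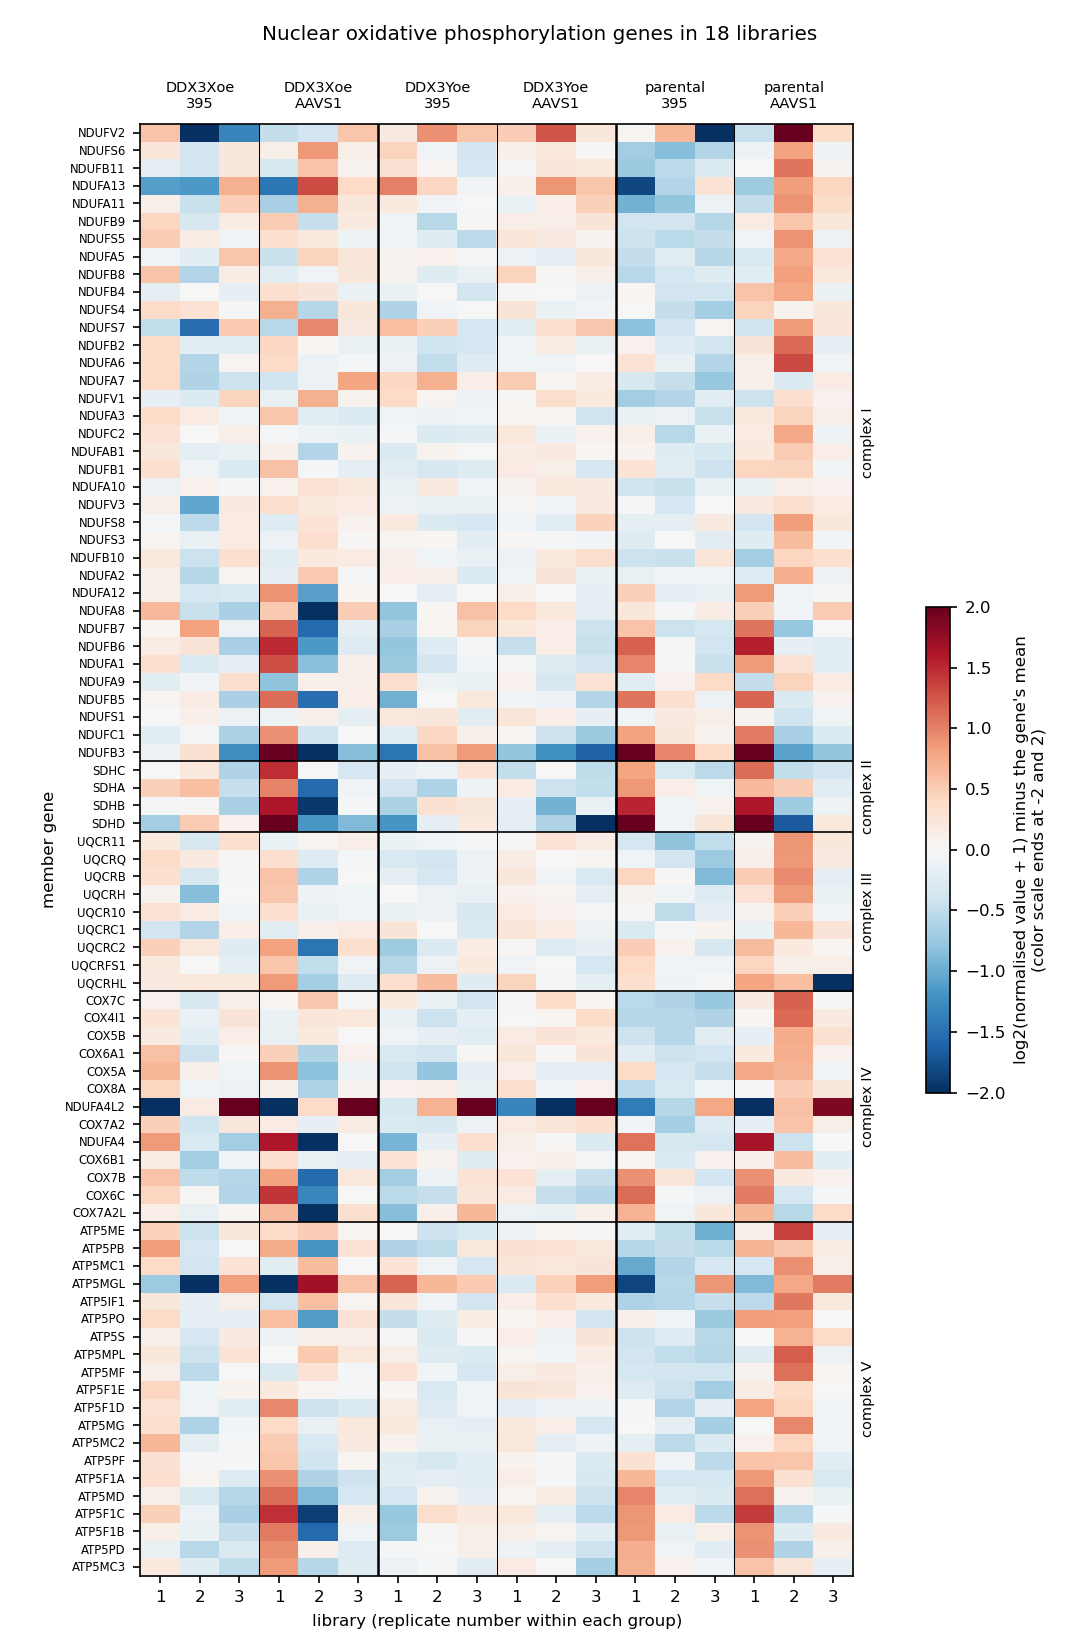
Level of 82 of the 83 members in each of the 18 libraries, as log2(normalised value + 1) minus the gene's own mean, with genes grouped by complex and libraries by group and replicate number. Parental AAVS1 replicate 2 is the highest of the 18 libraries for 38 of all 83 members, and the 4 complex II genes are high in the replicate 1 libraries of both parental groups and of DDX3Xoe with AAVS1.

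In parental cells the members lay lower under guide 395 than under AAVS1 in complexes I, III, IV and V, while only COX4I1 passed the test across all genes. The median log2 fold change over the 83 members was -0.46, beside 0.02 over all 15228 genes, and 71 of 83 members were below 0, beside 48.9% of all genes. COX4I1 alone was called at a limma adjusted p under 0.05, 1 of 83, where 1.78% of all genes were called in either direction and 0.801% lower. The groups did not overlap, with every guide 395 library below every AAVS1 library, for 24 members, where 9.86% of all genes separated in that way. No member separated with guide 395 higher, where 10.7% of all genes did. At an unadjusted limma p under 0.05, 24 members were lower and 0 higher, where 8.4% of all genes were lower. In bulk RNA, fewer cells that express a gene and less RNA per cell cannot be told apart.

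The 83 members together took 1.23, 1.04 and 0.988% of normalised reads in parental cells with guide 395, against 1.45, 1.70 and 1.25% with AAVS1. Genes encoded by mitochondrial DNA (symbols beginning MT-) took 9.11, 11.1 and 7.78% with guide 395, against 13.2, 16.5 and 11.3% with AAVS1. The mitochondrially encoded share takes in all such genes and not only the 13 subunits. Both shares were lower in every guide 395 library than in any AAVS1 library. The part that the mitochondrially encoded share plays in the values of nuclear genes was not tested.

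**Figure D2:**
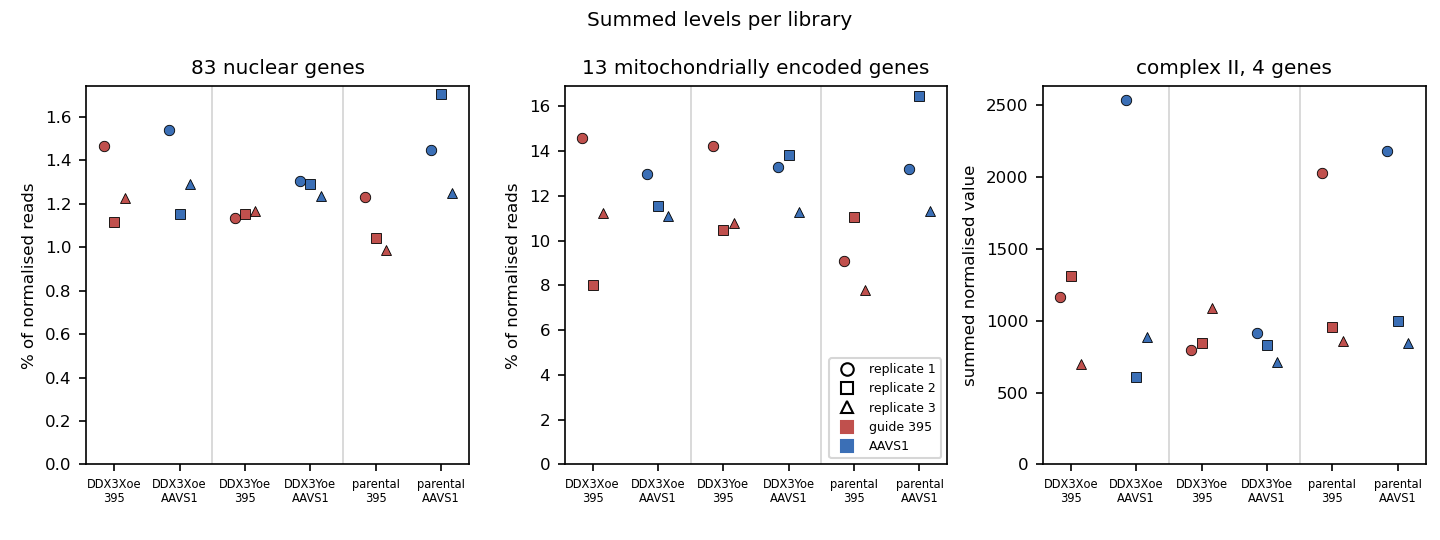
Share of normalised reads on the 83 nuclear members (left), share on mitochondrially encoded genes (middle) and summed normalised value of the 4 complex II genes (right). Each library is 1 point, with the replicate number as its shape. The middle panel is titled 13 genes but counts all genes with symbols beginning MT-. In parental cells both shares are lower with guide 395 than with AAVS1, and the complex II sum is highest in replicate 1 under either guide.

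Complex IV held the only called member. COX4I1 (ENSG00000131143, chromosome 16, 85798633 to 85807044, plus strand, GRCh38), the largest nuclear-encoded subunit of cytochrome c oxidase, had normalised values of 2959, 2946 and 2903 in parental cells with guide 395, against 4522, 9672 and 5002 with AAVS1. The guide 395 libraries lay close together and the AAVS1 libraries lay apart, with replicate 2 highest. COX4I1 averaged 2936 ± 29.7 with guide 395 and 6399 ± 2845 with AAVS1 (SD, n = 3 each), and it fell by 1.04 on the log2 scale (SE 0.26, 95% interval -1.58 to -0.49, limma adjusted p 0.0484). The call rested on narrow margins: without parental AAVS1 replicate 2 the log2 fold change was -0.70 and the limma adjusted p 0.200, and in fits that each left out 1 of the 18 libraries the adjusted p lay between 0.0395 and 0.200. The call was kept in 5 of those fits (without DDX3Xoe guide 395 replicate 2, DDX3Xoe AAVS1 replicate 1 or 2, or parental AAVS1 replicate 1 or 3) and lost in the others. The exons of COX4I1 overlap those of EMC8 on the opposite strand. The strand setting of the counts was not given in the sources used here, so reads of the 2 genes within that overlap cannot be told apart. How many reads of these 3′-end libraries fall there was not counted.

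COX7C (ENSG00000127184, chromosome 5, 86617904 to 86620962, plus strand), a small membrane subunit of complex IV, had 1598, 1525 and 1374 in parental cells with guide 395, against 2626, 5256 and 2344 with AAVS1. Its log2 fold change was -1.09 (SE 0.28), with a limma adjusted p of 0.0524, and 0.0262 once the replicate number entered the fit as a block. UQCR11 (ENSG00000127540, chromosome 19, 1597172 to 1605490, minus strand), a small membrane subunit of complex III, had 2780, 2029 and 2528 with guide 395, against 3725, 6521 and 4140.1 with AAVS1. Its log2 fold change was -0.94 (SE 0.24), with a limma adjusted p of 0.0521, and 0.034 with the block. With the block, 3 members were thus called (COX4I1, COX7C and UQCR11), where 4.45% of all genes were, 2.24% lower. With a block separate in each cell line, 5 were called, NDUFB9 and ATP5PB added, where 4.84% of all genes were, 2.32% lower. On the recovered reads, edgeR called 3 members, where it called 1.6% of all genes and 0.781% lower, and DESeq2 called 11, where it called 5.97% and 3.09% lower. The replicate numbers pair the parental libraries by the check described under the processing of the data. Both block fits also applied the replicate numbers to the DDX3Xoe and DDX3Yoe libraries, which were not taken as paired. Without parental AAVS1 replicate 2, COX7C came to -0.73 and UQCR11 to -0.70, and neither was called.

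**Figure D3:**
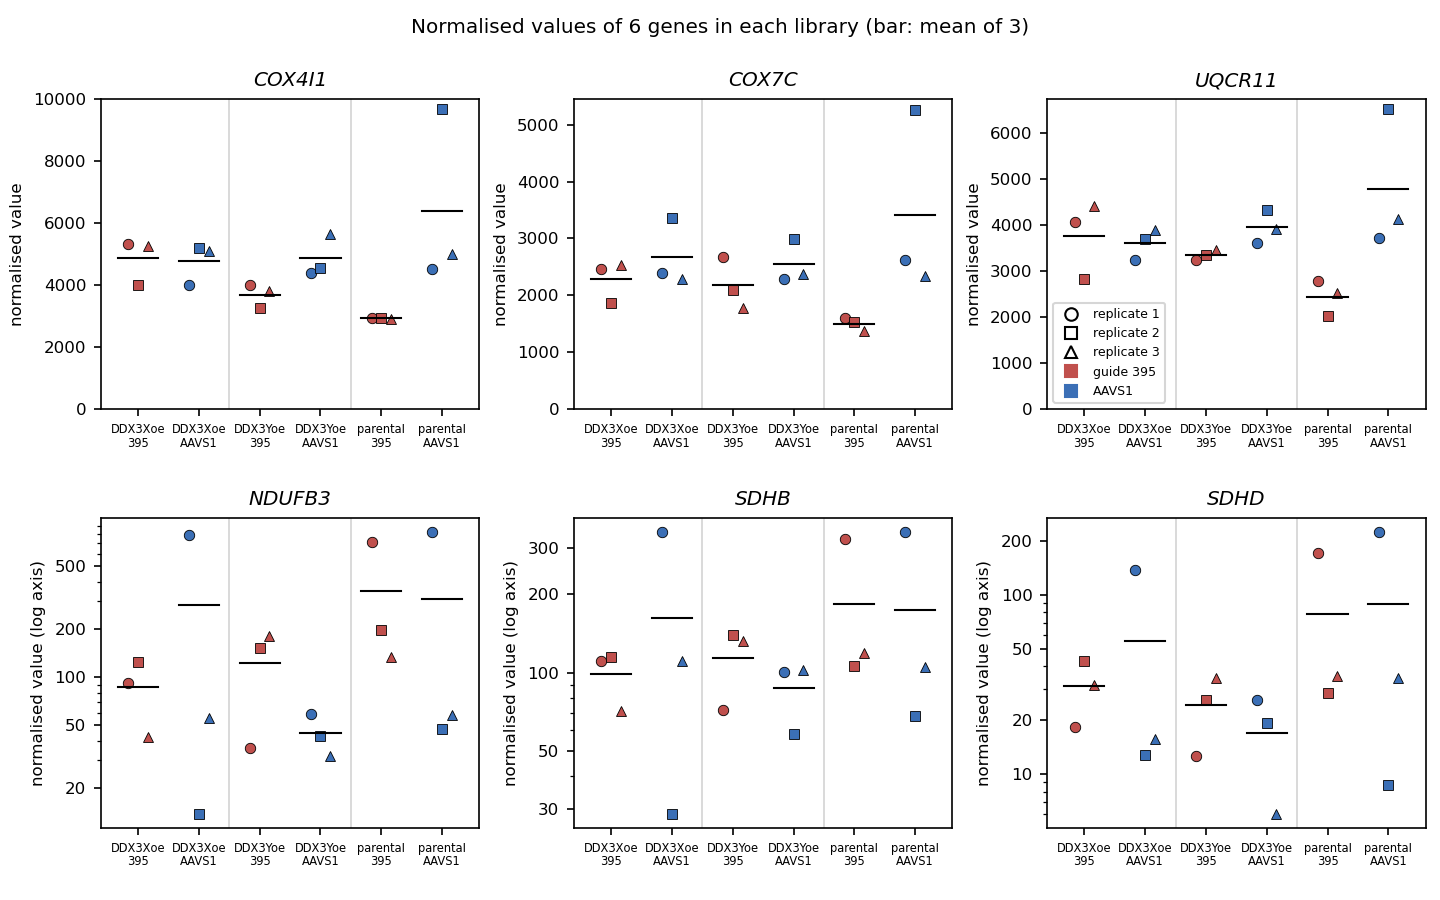
Normalised values of COX4I1, COX7C and UQCR11 (upper row, linear axes from 0) and of NDUFB3, SDHB and SDHD (lower row, log axes) in each library, with guide 395 left of AAVS1 in each kind of cell and bars at group means. The upper genes are lower in all 3 parental guide 395 libraries, from 2903 to 2959 for COX4I1 against 4522 to 9672 with AAVS1, while the lower genes peak in replicate 1 of both parental groups.

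Among the other complex IV subunits, COX5B, the zinc-binding subunit, had 2738, 2438 and 3113 with guide 395, against 3227, 6078 and 4478 with AAVS1 (log2 fold change -0.69). COX6A1, the non-muscle form of subunit VIa, had 775, 673 and 691 with guide 395, against 1041, 1501 and 965 with AAVS1 (-0.69). Both separated the groups, and the limma adjusted p-values of 0.117 and 0.217 did not pass. COX7A2, the subunit VIIa form found outside muscle, had 2020.2, 1332 and 1771 with guide 395, against 1878, 3136 and 2296 with AAVS1, and these overlapped (-0.50). Over the 13 members of complex IV the median was -0.51, with 11 below 0 and 5 that separated the groups, all lower with guide 395, where 9.86% of all genes did. COX7A2 came to -0.30 without parental AAVS1 replicate 2.

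The isoforms of complex IV subunits known from particular tissues were at or near 0. COX4I2 and COX7B2 were listed at 0 in all 18 libraries, and COX6A2, the muscle form, reached at most 0.958. COX6B2 and COX8C, both known from testis, reached at most 4.34 and 2.09. COX7A1, the form of heart and muscle, reached 10.7 in 1 library, so it did not pass the filter. NDUFC2-KCTD14 and ATP5MF-PTCD1, which are read-through genes, reached at most 0 and 2.17 and complete the 8 genes left out. A count of 0 allows up to 3 reads, for counting error only.

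NDUFA4 had 4169.7, 1567 and 1552 in parental cells with guide 395, against 6156, 1449 and 1945 with AAVS1. Its replicate 1 libraries were the highest under both guides, and its log2 fold change was -0.26 (SE 0.73), within the spread between replicates. NDUFA4L2, known as a hypoxia-induced paralogue, was near the filter, with 1.76, 3.94 and 11.5 with guide 395, against 0.671, 9.92 and 25.7 with AAVS1. It passed 10 in 7 of 18 libraries, and its log2 fold change of -0.51 had an SE of 1.58.

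In complex III the median of the 9 members was -0.40, with 8 below 0. Besides UQCR11, UQCRQ, a small subunit near the coenzyme Q site, separated the groups, with 1481, 1201 and 950.2 with guide 395, against 1693, 2869 and 1792 with AAVS1. Its log2 fold change was -0.79 (limma adjusted p 0.0877). UQCR10, another small subunit, had 1763, 1252 and 1591 with guide 395, against 1885, 2496 and 1717 with AAVS1, which overlapped (-0.40). UQCRB, a subunit that binds coenzyme Q, came to -0.57, also with overlap, and to -0.20 without parental guide 395 replicate 3. UQCRC1, a core protein, came to -0.35, close to UQCR10, and UQCRFS1, the Rieske iron-sulfur protein that carries electrons, to -0.14. UQCRFS1 had 498, 353 and 358 with guide 395, against 509.6, 411 and 407 with AAVS1. The complex III median was -0.24 without parental AAVS1 replicate 2, with UQCR10 at -0.24 and UQCRC1 at -0.15, and UQCRFS1 came to -0.04 without parental AAVS1 replicate 1.

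**Figure D4:**
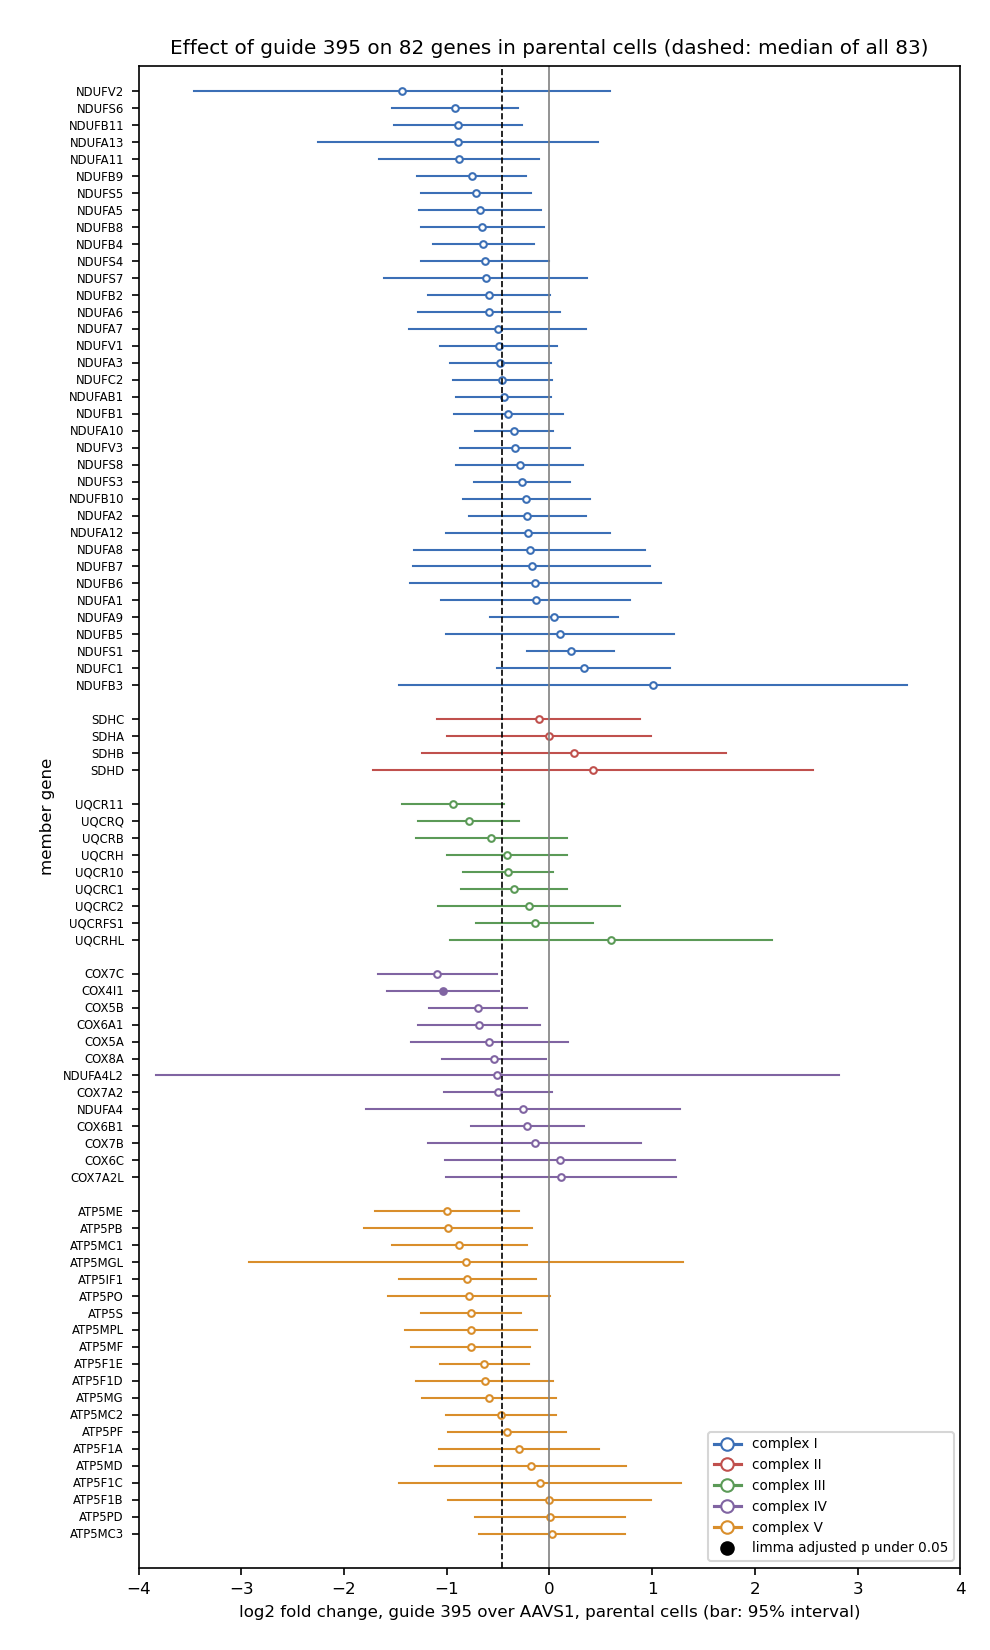
Log2 fold change of 82 of the 83 members between guide 395 and AAVS1 in parental cells, with 95% intervals from limma, grouped by complex. The dashed line marks the median of all 83, -0.46, and the filled point is COX4I1, the only member with an adjusted p under 0.05.

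Complex V had a median of -0.63 over 20 members, with 18 below 0 and 7 that separated the groups lower, where 9.86% of all genes did. Its median was -0.40 without parental AAVS1 replicate 2, beside -0.41 in complex IV. The 5 small membrane subunits near the dimer interface (ATP5MD, ATP5ME, ATP5MF, ATP5MG and ATP5MPL) had a median of -0.76, and 3 of them separated the groups. ATP5ME, subunit e, had 2842, 2337 and 1685 with guide 395, against 3549.6, 8556 and 2931 with AAVS1 (log2 fold change -0.997, limma adjusted p 0.128). Parental AAVS1 replicate 2 was far above the rest here too, and without it ATP5ME came to -0.53. ATP5MG, subunit g, which had the highest mean of complex V, had 6791, 5966 and 4335 with guide 395, against 6813, 13271 and 6594 with AAVS1, and the groups overlapped (-0.59, or -0.26 without parental AAVS1 replicate 2).

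In the F1 head, where ATP is formed, the 5 members had a median of -0.30. Among them 1 separated the groups lower, where 9.86% of all genes did. That member was ATP5F1E, the epsilon subunit, with 3219, 2856 and 2392 with guide 395, against 4289, 4994 and 3831 with AAVS1 (-0.63, limma adjusted p 0.117). Pseudogenes named for it held 20.4% of the summed mean of gene and copies, so its level is uncertain. ATP5F1A (alpha) had 1844, 914 and 912 with guide 395, against 2125, 1438 and 939 with AAVS1 (-0.30, or -0.01 without parental AAVS1 replicate 1). ATP5F1B, the catalytic beta subunit, had 3019, 1490 and 1782 with guide 395, against 3089, 1400 and 1863 with AAVS1, and its log2 fold change was -0.00 (SE 0.47). The 95% interval for ATP5F1B ran from -0.99 to 0.99, so a change of the size seen in COX4I1 lay just outside it.

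The c-ring genes ATP5MC1, ATP5MC2 and ATP5MC3 encode the same mature protein from different loci. ATP5MC1 had 779, 1039 and 1239 with guide 395, against 1237, 2942 and 1707 with AAVS1 (log2 fold change -0.88, limma adjusted p 0.151), and it came to -0.54 without parental AAVS1 replicate 2. ATP5MC2 had 1703, 1347 and 1602 with guide 395, against 2055, 2614 and 1829 with AAVS1, and the groups did not overlap (-0.47). ATP5MC3 had 4740.2, 3087 and 2790.0 with guide 395, against 4329.7, 3447 and 2585 with AAVS1, at 0.03, or -0.05 after median-centring each library. In the peripheral stalk, ATP5PB, subunit b, separated the groups with 545, 582 and 554 with guide 395, against 1299.8, 1182 and 898 with AAVS1 (-0.99, limma adjusted p 0.192). ATP5S, known as coupling factor B, also separated them, with 192, 213 and 174 with guide 395, against 255, 416 and 332 with AAVS1 (-0.77, limma adjusted p 0.0922).

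Complex I had a median of -0.44 over 37 members, with 32 below 0. Of the 7 core subunits, which hold the electron path from NADH to coenzyme Q, 6 were below 0 and 0 separated the groups. Among the 30 accessory subunits the median was -0.45, and 10 separated the groups, all lower with guide 395, where 9.86% of all genes did. NDUFS6, a zinc-binding accessory subunit, had 1806, 1616 and 1946 with guide 395, against 2722, 5142 and 2729.9 with AAVS1 (log2 fold change -0.92, limma adjusted p 0.109). NDUFB11, an accessory subunit of the membrane arm, had 1244, 1457 and 1716 with guide 395, against 2082, 4389.9 and 2179.9 with AAVS1 (-0.89, limma adjusted p 0.121). These 2 genes showed the pattern of COX4I1, with parental AAVS1 replicate 2 well above replicates 1 and 3, and without that library NDUFB11 came to -0.55.

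NDUFB9, a membrane-arm accessory subunit, had 794, 789 and 697 with guide 395, against 1161, 1515 and 1203 with AAVS1 (-0.76, limma adjusted p 0.128). Its value without parental AAVS1 replicate 2 was -0.64. NDUFS5, an accessory subunit on the intermembrane space side, had 2134, 1959.7 and 2059 with guide 395, against 2722, 5321 and 2641 with AAVS1 (-0.72). The core subunits overlapped: NDUFV1, which binds NADH, had 688, 749.6 and 959.5 with guide 395, against 828, 1410.4 and 1187 with AAVS1 (-0.49). NDUFS1, the largest iron-sulfur subunit, had 1114, 1346 and 1288 with guide 395, against 1245, 903 and 1116 with AAVS1 (0.21, 95% interval -0.22 to 0.63). With parental AAVS1 replicate 2 left out, NDUFS5 came to -0.39, NDUFV1 to -0.33 and NDUFS1 to 0.08. NDUFV2, a core subunit just inside the filter with 3 libraries at 10 or more, came to -1.43 with an SE of 0.96 on values of 33.5 or less, and 13.8% of its summed mean lay on pseudogene copies.

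Complex II stood apart from the others in its median, 0.12 over 4 members with 2 below 0, and in its spread. SDHA, the flavoprotein that oxidises succinate, had 804, 485 and 416 with guide 395, against 693, 623 and 380 with AAVS1. SDHB, the iron-sulfur subunit, had 324, 106 and 119 with guide 395, against 346, 68.2 and 105 with AAVS1. In both genes replicate 1 was the highest library under either guide. SDHC, a membrane anchor, had 729, 338 and 291 with guide 395, against 917, 300.2 and 325 with AAVS1. SDHD, the other membrane anchor, had 172, 28.5 and 35.5 with guide 395, against 225, 8.68 and 34.6 with AAVS1. All 4 members were thus highest in replicate 1 under both guides, by 1.78-fold (SDHA) to 5.39-fold (SDHD) over the mean of replicates 2 and 3 with guide 395 and by 1.38-fold to 10.4-fold with AAVS1.

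Their log2 fold changes between guides were -0.01 (SDHA, SE 0.47), 0.24 (SDHB, SE 0.70), -0.11 (SDHC, SE 0.47) and 0.42 (SDHD, SE 1.02), all smaller than the spread between replicates. The 95% intervals reached down to -1.24 for SDHB, -1.09 for SDHC and -1.72 for SDHD. These intervals did not exclude a decrease of the size of COX4I1, which lay just outside the interval of SDHA. The complex II median ranged from -0.33 to 0.66 when 1 library at a time was left out, so its difference from the medians of complexes I, III, IV and V depended on single libraries. Members of a complex are not replicates, and the difference between complexes was not tested. Exons of SDHD overlap TIMM8B and those of SDHC overlap CFAP126, both on the opposite strand, and 6.91% of the summed mean of SDHA lay on pseudogene copies.

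The replicate pattern of complex II was shared by some members of every other complex. Of the 83 members, 29 (34.9%) were highest in replicate 1 under both parental guides, beside 24.9% of all genes. By complex the share was 100% in II, 33.3% in III, 38.5% in IV and 45% in V. In complex I it was 21.6%, below that of all genes. NDUFB3, an accessory subunit of complex I, had 709, 199 and 134 in parental cells with guide 395, against 821, 47.1 and 58.0 with AAVS1. The library labelled DDX3Xoe with AAVS1 replicate 1 also had high values, with 790.0 for NDUFB3, 138 for SDHD and 6039 for NDUFA4. The within-group SD on the log2 scale, pooled over the 6 groups, had a median of 0.83 in complex II, beside 0.37 in complex I, 0.32 in complex III, 0.35 in complex IV and 0.42 in complex V. It was lowest for NDUFA10 (0.13) and highest, among members with a mean of at least 100, for NDUFB3 (1.72). The median over the 77 members with a mean of at least 100 was 0.37, beside 0.39 over 9080 genes at that level.

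A principal component analysis of the 83 members over 18 libraries put 53.9% of their variance on a first component. It was high in parental guide 395 replicate 1 (6.54), parental AAVS1 replicate 1 (6.96) and the library labelled DDX3Xoe with AAVS1 replicate 1 (7.98), and low in DDX3Xoe AAVS1 replicate 2 (-7.22), so it ran across the guides. NDUFB3, SDHD, NDUFA4, SDHB and ATP5F1C had the largest positive weights on it, and NDUFA4L2, ATP5MGL and NDUFA13 the largest negative weights. The second component, with 17.9% of the variance, was highest in parental AAVS1 replicate 2 (5.87) and lowest in parental guide 395 replicate 3 (-3.99). Parental AAVS1 replicate 2 was the highest of all 18 libraries for 38 members (45.8%), beside 11.9% of all genes.

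Because that library stood so high, the parental comparison was also read within same-numbered pairs. The median of the 83 differences between guide 395 and AAVS1, on the log2 scale, was -0.23 for replicate 1, -0.89 for replicate 2 and -0.33 for replicate 3, with 68, 66 and 72 members below 0. Without parental AAVS1 replicate 2 the median of the fitted changes was -0.33, with 73 of 83 below 0. In that fit 11 members were lower at an unadjusted limma p under 0.05, where 5.27% of all genes were, and 0 were called. The direction of the median was therefore the same in every pair, and its size depended on replicate 2.

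In DDX3Xoe cells no member passed the test between guides, and the member median lay near 0. No member was called, as was no gene in all, a background of 0% by limma, edgeR and DESeq2, and at an unadjusted limma p under 0.05 there were 0 members, where 2.07% of all genes passed, 1.39% lower. The member median was -0.04, with 45 of 83 below 0, and the same-numbered pairs gave -0.02, -0.04 and 0.01. Without the replicate 1 pair the median was -0.02, with 43 below 0. Groups separated for 1 member lower (NDUFA10) and 1 higher (NDUFC2), where 2.04% and 1.83% of all genes did. Without the replicate 1 pair, with 2 libraries a group, 5 members separated lower and 10 higher, where 10.4% and 9.79% of all genes did. The median ranged from -0.21 to 0.09 when 1 library was left out, without DDX3Xoe AAVS1 replicate 2 and without DDX3Xoe AAVS1 replicate 1.

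COX4I1 had 5333, 4021 and 5271 in DDX3Xoe cells with guide 395, against 4004, 5208 and 5093 with AAVS1, so that the libraries overlapped. Its log2 fold change was 0.03 (95% interval -0.51 to 0.57). UQCR11 had 4065, 2829 and 4413 with guide 395, against 3234, 3695 and 3903 with AAVS1 (0.04). COX7C had 2456, 1862 and 2526 with guide 395, against 2393, 3361 and 2293 with AAVS1 (-0.22). Without the replicate 1 pair the signs of COX4I1 and UQCR11 turned, to -0.16 (SE 0.32) and -0.10 (SE 0.30), and COX7C came to -0.36 (SE 0.35). The smallest unadjusted p-values belonged to NDUFV3, an accessory subunit of complex I, at -0.48, and ATP5PD, subunit d of the peripheral stalk, at -0.59, both with limma adjusted p 1.00 and with overlapping groups. ATP5PD came to -0.26 without DDX3Xoe AAVS1 replicate 1, and NDUFV3 to -0.09 without DDX3Xoe guide 395 replicate 2. Without the replicate 1 pair they came to -0.35 and -0.61.

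In DDX3Yoe cells the members lay slightly lower with guide 395, without a call. The median was -0.12, beside -0.00 over all genes, with 63 of 83 below 0, and the pairs gave -0.21, -0.16 and -0.07. No member was called, as was no gene by limma, edgeR or DESeq2 (0%), and 0 members but 1% of all genes had an unadjusted limma p under 0.05, 0.361% lower. The groups did not overlap for 11 members with guide 395 lower, where 3.69% of all genes separated in that way, and for 1 with guide 395 higher (ATP5PD), where 3.8% did. The 11 lower members were NDUFA6, NDUFB9, NDUFS5, NDUFV3, UQCR10, UQCR11, UQCRQ, COX4I1, COX5B, COX7A2 and ATP5F1E.

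COX7A2 had 1725, 1686 and 1937 in DDX3Yoe cells with guide 395, against 2355, 2489 and 2655 with AAVS1 (log2 fold change -0.49, limma adjusted p 1.00). NDUFS5 had 2703, 2420 and 1978 with guide 395, against 3372, 3232 and 2977 with AAVS1 (-0.44, limma adjusted p 1.00). COX4I1 had 4013, 3268 and 3822 with guide 395, against 4392, 4567 and 5655 with AAVS1 (-0.39, 95% interval -0.94 to 0.15). The members together took 1.14, 1.15 and 1.17% of normalised reads with guide 395, against 1.31, 1.29 and 1.24% with AAVS1, again without overlap. Complex II had a median of 0.35 here, and its libraries overlapped: SDHD had 12.6, 26.1 and 34.4 with guide 395, against 25.9, 19.4 and 6.01 with AAVS1.

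**Figure D5:**
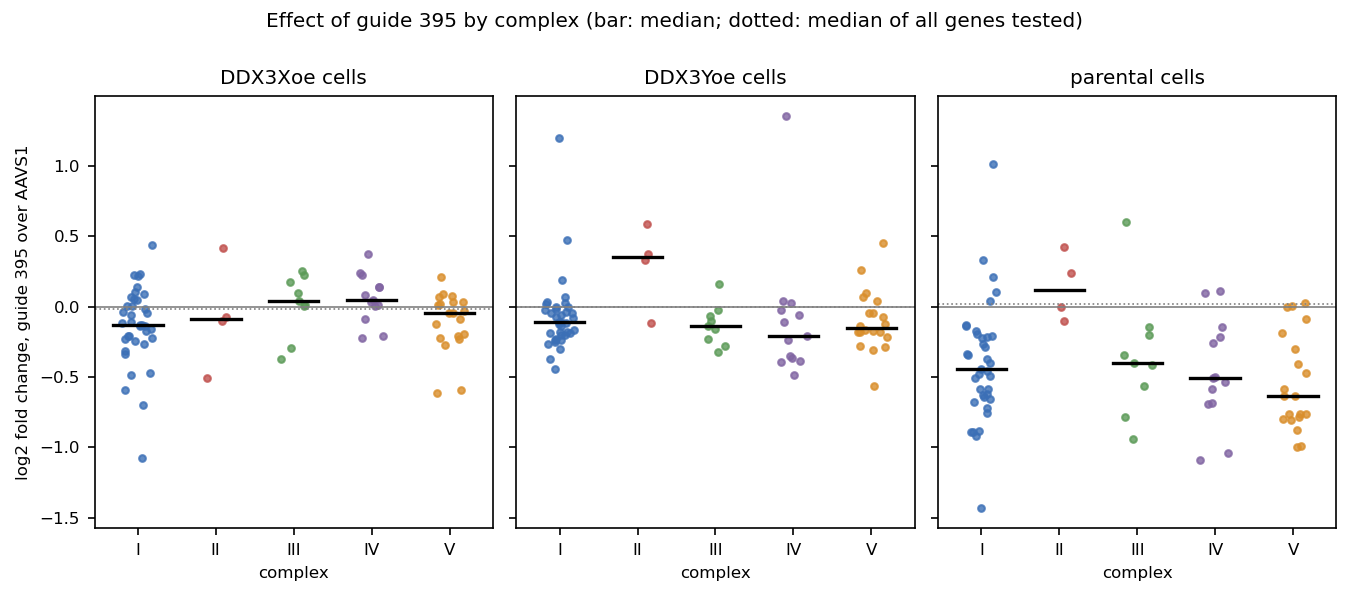
Log2 fold change of each member between guide 395 and AAVS1, by complex, in DDX3Xoe, DDX3Yoe and parental cells, 1 point per gene with bars at complex medians and a dotted line at the median of all genes tested. In parental cells the medians of complexes I, III, IV and V lie between -0.63 and -0.40, in DDX3Xoe cells all 5 lie between -0.13 and 0.05, and in DDX3Yoe cells complexes I, III, IV and V lie between -0.21 and -0.11. The DDX3Xoe medians include the replicate 1 pair, which ran against its guide labels. For complex II in DDX3Xoe cells the same-numbered pairs differed widely, at -1.55, 1.81 and -0.33.

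The difference between the guide effects was tested in the same fit. For DDX3Xoe minus parental cells the member median was 0.40, with 67 of 83 above 0, and 0 members were called by limma or DESeq2, where limma called 0.046% of all genes (0.0263% lower) and DESeq2 0.565%. With the replicate block 0 members were called, where 0.105% of all genes were (0.0591% lower), and 0 with a block within each line, where 0.0657% were (0.0394% lower). At an unadjusted limma p under 0.05 there were 12 members, all with a positive difference, where 8.14% of all genes passed in either direction and 4.54% with a negative difference. The smallest p-values were those of COX4I1, with a difference of 1.07 (95% interval 0.30 to 1.84), and UQCR11, with 0.98 (0.27 to 1.69), both with a limma adjusted p of 0.459. Without the replicate 1 pair labelled DDX3Xoe these came to 0.88 and 0.84, with limma adjusted p 0.777 and 0.769, and the member median was 0.44. In that fit 8 members, all with a positive difference, had an unadjusted limma p under 0.05. Of all genes, 6.41% passed in either direction and 3.97% with a negative difference. For DDX3Yoe minus parental cells the median was 0.28, with 73 above 0, and limma and edgeR called 0 members and 0 genes (0%), while DESeq2 called 0 members and 0.0591% of all genes. The smallest p-values were those of COX7C, with a difference of 0.85 (0.03 to 1.68), and UQCR11, with 0.71 (-0.00 to 1.41), both with a limma adjusted p of 1.00. Unadjusted, 1 member (COX7C) and 4.84% of all genes passed. The guide effect on members was thus not shown to differ between kinds of cells, and both differences share the parental libraries. Without parental AAVS1 replicate 2 the medians of the differences were 0.30 and 0.22, and the DDX3Yoe differences of COX7C and UQCR11 came to 0.49 and 0.46.

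Under the control guide, DDX3Xoe and DDX3Yoe cells had lower member medians than parental cells, and the size of both depended on single libraries. The median was -0.25 for DDX3Xoe against parental cells and -0.26 for DDX3Yoe against parental cells, each with 72 of 83 below 0, beside -0.02 and -0.03 over all genes. Both comparisons share the parental AAVS1 libraries. No member and no gene was called in either by limma, edgeR or DESeq2 (0% each), and 0 members in both had an unadjusted limma p under 0.05, where 0.985% and 2.64% of all genes did. The groups separated for 1 member in DDX3Xoe cells (NDUFAB1), where 1.58% of all genes were lower without overlap, and for 4 in DDX3Yoe cells (NDUFA3, UQCRC2, UQCRFS1 and ATP5F1D), where 3.78% were. Without parental AAVS1 replicate 2 the medians were -0.06 and -0.05, with 51 and 45 members below 0. The DDX3Xoe median was also -0.06 without DDX3Xoe AAVS1 replicate 2, and it was -0.34, with 16 members lower at an unadjusted limma p under 0.05 (2.72% of all genes were) and 0 called, without the replicate 1 pair labelled DDX3Xoe.

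ATP5PO, the peripheral stalk subunit that gives complex V its oligomycin sensitivity, had 1791, 540.0 and 1442 in DDX3Xoe cells and 1214, 1295 and 904 in DDX3Yoe cells, against 2090.0, 2081 and 1171 in parental cells, all with AAVS1. Its log2 fold changes were -0.62 and -0.61, both with limma adjusted p 1.00 and with overlap. NDUFAB1, the mitochondrial acyl carrier protein and a complex I subunit, had 1100.3, 679.5 and 1079.8 in DDX3Xoe cells, against 1175, 1450 and 1122 in parental cells (-0.41). NDUFB4, an accessory subunit of the membrane arm, had 1131, 1119 and 1027 in DDX3Yoe cells, against 1659.6, 1897 and 1011 in parental cells (-0.43). None of these passed, and without the DDX3Xoe AAVS1 replicate 2 library the ATP5PO value in DDX3Xoe cells was -0.10 and that of NDUFAB1 -0.19. Without the replicate 1 pair labelled DDX3Xoe these came to -0.96 and -0.53, both with limma adjusted p 0.830. NDUFB4 came to -0.25 without parental AAVS1 replicate 2.

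Other genes of the pathway were read from lists of assembly factors, electron carriers and regulators, in parental cells with guide 395 against AAVS1. Of 13 tested coenzyme Q synthesis genes, 1 was called: COQ7, the hydroxylase of a late step, fell, with 130, 87.6 and 40.7 with guide 395, against 191, 262 and 171 with AAVS1 (log2 fold change -1.39, SE 0.34, limma adjusted p 0.0434). No complex I assembly factor of 17 was called (median -0.29, 12 below 0), and TIMMDC1, the member with the smallest p, came to -0.55. Of 22 complex IV assembly factors 0 were called (median -0.16), and SCO2, a copper chaperone for complex IV, had 651, 757 and 953 with guide 395, against 121, 329 and 470 with AAVS1. SCO2 came to 1.55 with a limma adjusted p of 0.0732, and 0.0276 with the replicate block. SCO2 begins 145 bases downstream of TYMP on the same strand of chromosome 22, and TYMP came to 3.08 (limma adjusted p 0.032). Whether reads from TYMP transcripts fall in SCO2 was not tested.

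No assembly factor of complexes II (4 tested), III (6) or V (3) was called, with medians of -0.37, -0.19 and -0.03. In these lists the smallest p-values belonged to SDHAF1 (0.98), UQCC2 (-0.58) and ATPAF2 (-0.68). Of cytochrome c (CYCS) and cytochrome c1 (CYC1), 0 were called, at 0.06 and -0.53. Of 12 TCA cycle genes 0 were called (median -0.25), with IDH3G, a subunit of isocitrate dehydrogenase, at -0.83. Of 8 genes for transcription of mitochondrial DNA 0 were called (median -0.10), with LRPPRC, which stabilises mitochondrial mRNA, at -0.36. The 13 mitochondrially encoded subunits had a median of -0.52 with 12 below 0 and 0 called, with MT-CO3, a subunit of complex IV, at -1.35 (limma adjusted p 0.129).

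The 7 tested transcription factors and coactivators of mitochondrial genes had a median of 0.30 with 1 below 0 (NRF1, -0.10), and 0 were called. YY1 had 1457, 2560 and 2694 with guide 395, against 1082, 1157 and 1460 with AAVS1, which overlapped, at 0.82 with a limma adjusted p of 0.0718, and 0.0467 with the replicate block. Of the markers of the cells, NES was called lower in parental cells with guide 395 (-1.71, limma adjusted p 0.00314), and SOX2 came to -0.61 (adjusted p 0.379). The part of NES and SOX2 in the values of the members was not tested.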

How the data were processed

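Gene-level expression was measured in 18 libraries of KNS-42 cells, 3 in each of 6 groups, with a QuantSeq 3′ kit on total RNA, per the labels' protocols. The values used are a normalised signal per gene that the authors deposited, with whole reads recoverable: 100% of values in each library were whole multiples of the value of 1 read, within 0.01 of a read. Libraries held 5667609 to 13201602 reads on genes. A count of 0 allows up to 3 reads, and this floor covers counting error only. GRCh38, limma, featureCounts 1.5.1, STAR 2.5.2b and RSEM 1.3.0 appear in the submitters' processing notes, which do not say which of them made the table; the annotation release and the strand setting are not given in the sources used here. Of 58050 genes, 57446 matched GENCODE 29, which gave biotypes and positions.

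Log2(value + 1) of the 15228 genes with at least 10 in at least 3 libraries was fitted with limma 3.58.1 (R 4.3.3) over all 6 groups (12 residual degrees of freedom), with Benjamini-Hochberg adjustment over all genes and a threshold of 0.05. On this scale the fold changes of genes with low values come out too small. The 7 comparisons were the guide effect in each kind of cells, the differences of that effect from parental cells, and the lines under AAVS1. The script was tested on simulated data. Figures and summaries used Python 3.11.15, pandas 2.3.3 and numpy 2.4.6.

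Members and lists were chosen with earlier results of these data known, and the split into core, accessory and complex V parts was made after their values were seen. Members named with values were those called in any comparison by limma with or without the block; in parental cells the 4 with the smallest unadjusted p in each complex (2 in complex II); the 2 with the smallest p in each other comparison; the highest mean of each complex; the 4 SDH genes; 6 core catalytic subunits; and the isoform sets of COX4I, COX6A, COX7A, NDUFA4 and ATP5MC. From each other list the called genes and the gene with the smallest p were named. Other members, such as NDUFB3, NDUFV2 and ATP5PB, were named after their values were seen. Deviations of same-numbered libraries correlated at 0.570, 0.201 and 0.280 in parental cells, all over 0.1, and replicate numbers were taken to pair these libraries. The unlike-numbered parental guide 395 replicate 3 and AAVS1 replicate 2 correlated at 0.152, also over 0.1, so replicates 2 and 3 were paired less surely. The values for same-numbered libraries were 0.231, -0.028 and 0.300 in DDX3Xoe cells and 0.075, 0.114 and 0.238 in DDX3Yoe cells. Those lines were not taken as paired. Alternatives were a replicate block, edgeR 4.0.16 and DESeq2 1.42.0 on the recovered reads, the compared groups alone, median-centring, other filters and pseudocounts, and leaving out each library. Counts without parental libraries, and counts and gene values without the replicate 1 pair labelled DDX3Xoe, were added after seeing the data. Some items are not reported here, and the heat map and the plot of intervals show 82 members.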

Additional observations from a re-analysis of the deposited data

How the results depend on the processing

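The number of members called in parental cells with guide 395 against AAVS1, 1 with limma, was 11 with DESeq2, 3 with edgeR, 3 with a filter of 50, 3 with a pseudocount of 5, 3 with the replicate block and 5 with a replicate block within each cell line. It was 0 with the compared groups alone, 0 with median-centring and 0 with no filter, and 0 to 3 when each library was left out. Of all genes, limma called 1.78%, DESeq2 5.97%, edgeR 1.6%, the replicate block 4.45% and the block within each cell line 4.84%. With 1 parental library left out, 60 to 366 of 15228 genes were called. The share of all genes was not counted for the compared groups alone, median-centring, no filter, the filter of 50 or the pseudocount of 5. COX4I1 was called in 13 of 29 alternatives (log2 fold change -1.24 to -0.70, adjusted p 0.00222 to 0.210), and COX7C and UQCR11 in 9 each. The replicate block called no member in any other comparison. The member median of DDX3Yoe against parental cells under AAVS1 ranged from -0.39 to -0.0486 without 1 library, and that of DDX3Xoe against parental cells from -0.38 to -0.06. In parental cells the median ranged from -0.55 to -0.33 without 1 library, and the complex medians from -0.54 to -0.33 (I), -0.33 to 0.66 (II), -0.63 to -0.24 (III), -0.67 to -0.41 (IV) and -0.74 to -0.40 (V).

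Signs changed for SDHD (-0.20 with DESeq2, -0.22 with edgeR) and for ATP5MC3 (-0.0459 with median-centring). Without 1 library the values ranged from -0.30 to 0.31 for ATP5F1B, -0.20 to 0.21 for ATP5MC3, -0.73 to 0.37 for NDUFA4, -1.62 to 0.37 for NDUFA4L2, -0.28 to 0.19 for SDHA, -0.27 to 0.91 for SDHB, -0.51 to 0.41 for SDHC and -0.65 to 1.62 for SDHD. The cause was not tested. Of 211 summary values under settings that leave out no library by itself, 202 kept their direction and their side of the threshold or stayed within the spread, as did 456 of 483 values of named members. With 3 libraries a group, changes within the intervals given for complex II could not be detected.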
